A study of Mus musculus with 30 samples.

Results

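The difference between the hepatic response to casein restriction and the hepatic response to soy restriction was examined in 24 of the 30 livers of the series. For each gene the casein effect was the log2 change from Cas-20% (the group labelled NP) to Cas-5% (LP), the soy effect was the log2 change from Soy-20% (20Soy) to Soy-10% (10Soy), and the interaction was the casein effect minus the soy effect, with 6 livers per diet. The 6 livers of the soy control supplemented with sulfur amino acids (20Soy_SAA) did not enter this contrast. Each liver came from 1 male C57BL6/J mouse, killed at the age of 6 months after its diet had been fed for 12 weeks, and gave 1 library. The Cas-20% diet held 20% casein with 0.57 g methionine and 0.41 g cysteine per 100 g, and the Cas-5% diet held 5% casein with 0.15 g and 0.1 g. The Soy-20% diet held 20% soy protein with 0.22 g methionine and 0.22 g cysteine per 100 g, and the Soy-10% diet, given as 11.5% soy protein in the labels, held 0.13 g of each. No methionine was added to these 4 diets, and cystine was added to the casein diets. Casein was therefore cut by more than soy in both protein and methionine, and in this contrast the protein source and the size of the restriction cannot be told apart.

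The liver receives dietary amino acids through the portal vein and adjusts their breakdown, the disposal of their nitrogen as urea, and the synthesis of fat and plasma proteins to the supply. When amino acids are short, uncharged transfer RNA activates the kinase GCN2, translation of the transcription factor ATF4 increases, and ATF4 induces genes for amino acid synthesis and uptake and the hormone FGF21. Methionine is used for protein and for S-adenosylmethionine, the methyl donor, and its sulfur passes through transsulfuration to cysteine and taurine.

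The 24 libraries held 7694015 to 13050108 assigned reads (median 10630774). Every library carried hepatocyte transcripts at a high level, with a summed level of 10 hepatocyte markers between 769877 and 1010471 normalized counts, whereas the 10 lymphocyte and neutrophil markers of the table summed to between 99.2 and 199. Of the 10 hepatocyte markers 3 had a negative interaction and 0 a positive one, against 3.57% and 2.43% of all genes. With libraries scaled by their totals alone, 2 were negative and 2 positive. The summed level had a median of 951646 in Cas-5% and medians of 844581 to 869729 in the other diets. The 13 Kupffer cell markers had medians of 5642 to 5757 summed normalized counts in the 4 diets, and none of them passed the test for either effect or for the interaction. The soy estimate was nevertheless above 0 in all 13 (median 0.18 log2 units). The 14 stellate and fibroblast markers summed to between 5341 and 6891 in Cas-5% and between 4620 and 5755 across the other 3 diets, and 1 of them, Lum, had a called interaction. In whole liver, fewer cells of a type and less RNA per cell cannot be told apart. The 6 cholangiocyte markers of the table summed to 417 to 627 in Cas-20%, 373 to 518 in Cas-5%, 399.9 to 562 in Soy-20% and 268 to 360.0 in Soy-10% livers, the soy groups not overlapping, and none of the 3 tested was called under soy restriction or in the interaction. The 7 red blood cell markers had median sums of 25142 in Cas-20%, 16567 in Cas-5%, 15049.7 in Soy-20% and 15726 in Soy-10% livers, and the diets overlapped. The 2 adipocyte markers of the table summed to 35.04 to 267 in Cas-20%, 56.3 to 104 in Cas-5%, 98.6 to 633 in Soy-20% and 264 to 939 in Soy-10% livers, and neither had a called interaction. Soy-10% liver 4 carried transcripts of pancreatic acinar cells, with 11257 summed normalized counts over 14 acinar genes against 0 to 7.51 in the other 23 livers. Without this liver the interaction was called for 624 genes, 245 positive and 379 negative. The log2 deviation of each library from the mean of the 24 livers was set against the GC content of the last 200 transcript bases. The slope lay between -0.037 and 0.053 log2 units per 10% GC in the 24 livers. It lay between -0.002 and 0.223 in the 6 livers of the supplemented soy diet, which did not enter that mean. On the first principal component, which held 25.2% of the variance, the diets did not overlap and stood in the order Cas-20% (20.9 to 31.0), Soy-20% (5.6 to 16.1), Soy-10% (-10.5 to -4.8) and Cas-5% (-31.0 to -18.4).

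Casein restriction changed far more genes than soy restriction did, and most of the genes that differed between the sources responded to casein with a small or undetected change under soy. Of 12450 genes tested with edgeR's quasi-likelihood F test at a Benjamini-Hochberg adjusted p of 0.05, 3506 (28.2% of those tested) changed under casein restriction, 1667 upward (13.4%) and 1839 downward (14.8%). Soy restriction against Soy-20% changed 90 genes (0.723%), 32 upward (0.257%) and 58 downward (0.466%). The interaction was called for 746 genes (5.99%), positive for 302 (2.43%) and negative for 444 (3.57%), where positive means a higher log2 change under casein than under soy. In 731 of the 746 genes the casein effect was the larger in size, and in 549 of the 746 both effects had the same sign. Over the 746 genes the median size was 0.659 log2 units for casein and 0.135 for soy. Among the 3506 genes changed by casein restriction, the soy effect had the same sign in 81.8%, and the median ratio of the soy to the casein effect was 0.244. Over all 12450 genes both effects had the same sign in 65.3% and correlated with r = 0.57, a value across genes, which are not independent.

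The called genes fell into unequal classes. Casein restriction changed 686 genes with a called interaction and no called soy effect, 281 upward and 405 downward. In 514 of these 686 genes the 95% interval of the soy effect lay within 0.5 log2 units of 0, in 505 the soy estimate had the same sign as the casein effect, and in 175 it also had an unadjusted p under 0.05, against 17 with an opposite sign at that level. A further 44 genes changed under both sources in the same direction by unequal amounts, 11 upward and 33 downward, with a median soy to casein ratio of 0.409, and the casein effect was the larger in all 44. No gene changed in opposite directions with both effects called. Both effects were called with the same sign and no called interaction in 42 genes, 21 upward and 21 downward, and in 29 of these the 95% interval of the interaction lay within 1 log2 unit of 0. Only 1 gene, Mllt3, had a called soy effect and a called interaction without a called casein effect. Another 3 genes, Polr3g, Gm10478 and Gm13166, which are named here for their small number, had a called soy effect with neither a called casein effect nor a called interaction. The other 2734 genes with a called casein effect had neither a called soy effect nor a called interaction, and for them a difference between the sources was not detected.

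**Figure D1:**
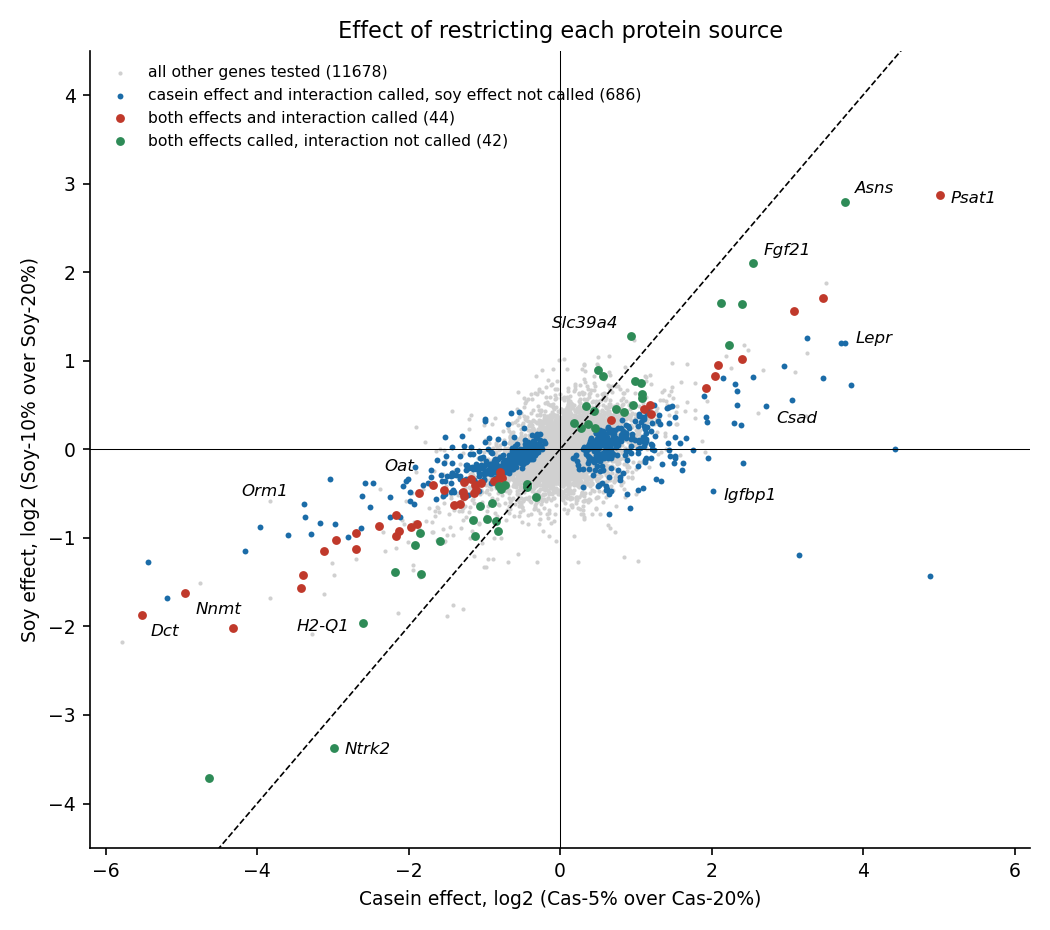
Soy effect against casein effect on the log2 scale for the genes tested, with the dashed line marking equal effects and 1 gene (Phgdh) outside the axes. The 686 genes in blue had no called soy effect, and in 514 of them its 95% interval lay within 0.5 log2 units of 0. The 44 in red lie between the line of no soy effect and the dashed line, with a median soy to casein ratio of 0.409. In the 42 in green this ratio was 0.761. Genes in grey with small effects also lie near the dashed line.

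The number of positive and negative interactions depended on the scaling of the libraries. With library totals in place of TMM factors the median casein effect of all genes moved by about 0.2 log2 units, from 0.015 to 0.197, the median interaction moved from 0.002 to 0.144, and the interaction was called for 1028 positive and 220 negative genes. The share of positive calls was 40.5% with TMM factors, 38.7% with DESeq2 size factors and 82.4% with library totals, so small changes below are to be read relative to the median gene. The number of soy calls depended on single livers. Without Soy-20% liver 1 the soy effect was called for 39 genes and the shared class held 14, and without Soy-10% liver 5 these numbers were 41 and 15. Without Soy-10% liver 2 the soy effect was called for 49 genes and without Soy-10% liver 3 for 59, with 24 and 27 shared genes. Without Soy-20% liver 5 the numbers were 126 and 69. The 6 livers of each diet are separate mice, so the spread includes differences between animals.

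A called interaction can lie in the control diets, in the restricted diets or in both. Of the 746 genes, 189 differed between Cas-20% and Soy-20% and not between Cas-5% and Soy-10%, 359 differed between the restricted diets alone, 70 differed in both comparisons and 128 in neither. Over all genes 664 (5.33%) differed between the control diets and 1209 (9.71%) between the restricted diets. These comparisons share livers with the interaction and are given to show where the levels lay.

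Csad, the decarboxylase that forms hypotaurine on the way to taurine, had a large positive interaction that lay in the control diets. It ran at 1526 to 3288 (median 2115) normalized counts in Cas-20%, 11165 to 19357 (median 14472) in Cas-5%, 9645 to 12067 (median 11250.0) in Soy-20% and 14258 to 16819 (median 15368) in Soy-10% livers. The Cas-20% livers were below all the others, the Soy-10% livers lay above the Soy-20% livers, and Soy-10% and Cas-5% livers overlapped. The interaction was 2.23 ± 0.21 (adjusted p = 1.92e-07), from 2.71 ± 0.15 under casein and 0.49 ± 0.14 under soy restriction, with a Cas-20% to Soy-20% difference of -2.24 ± 0.15 and a Cas-5% to Soy-10% difference of -0.02 ± 0.14. Its soy effect was called when the soy livers were fitted alone with edgeR (adjusted p = 0.00266). Oat, the mitochondrial ornithine aminotransferase, had a negative interaction that lay in both pairs of diets. It ran at 5982 to 11349.6 (median 8365) normalized counts in Cas-20%, 1334 to 1768 (median 1543) in Cas-5%, 2838 to 3689 (median 3147) in Soy-20% and 1711 to 3556 (median 2358) in Soy-10% livers. The Cas-20% livers lay above all the others, the Soy-20% and Soy-10% ranges overlapped, and so did Soy-10% and Cas-5%. Its interaction was -2.08 ± 0.22 (adjusted p = 8.77e-07) with a Cas-20% to Soy-20% difference of 1.42 ± 0.15 and a Cas-5% to Soy-10% difference of -0.67 ± 0.15.

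Lepr, the leptin receptor, and Orm1, an acute phase plasma glycoprotein, differed in the restricted diets. Lepr ran at 5.79 to 27.9 (median 11.1) normalized counts in Cas-20%, 156 to 271 (median 196) in Cas-5%, 4.18 to 16.1 (median 12.8) in Soy-20% and 15.2 to 36.5 (median 31.1) in Soy-10% livers. Only the Cas-5% livers were far above the rest, and the Soy-20% and Soy-10% ranges overlapped. Its effects were 3.76 ± 0.25 under casein and 1.20 ± 0.32 under soy restriction, and its interaction was 2.55 ± 0.44 (adjusted p = 5.60e-04). Fitted on the soy livers alone, its soy effect was called as well (edgeR adjusted p = 0.0431). Orm1 ran at 5551 to 7306 (median 6201) normalized counts in Cas-20%, 320.3 to 1337 (median 439) in Cas-5%, 4909 to 7669.7 (median 5841) in Soy-20% and 3133 to 6379 (median 3653) in Soy-10% livers. The Cas-5% livers lay below those of every other diet, including Cas-5% liver 5 at 1337. The interaction of Orm1 was -2.76 ± 0.34 (adjusted p = 8.96e-06), and its control difference was 0.05 ± 0.23. Cyp3a11, a cytochrome P450 of drug and steroid metabolism, rose with casein restriction by 1.06 ± 0.15 log2 units while its soy effect was 0.02 ± 0.15. It nevertheless ran higher in both soy diets, at 20340.1 to 43713 (median 34069) in Soy-20% and 25361 to 39786 (median 33478) in Soy-10%, than in Cas-20% (4586 to 8177 (median 6263)) or Cas-5% (10769.8 to 15209 (median 12560.2)) livers.

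**Figure D2:**
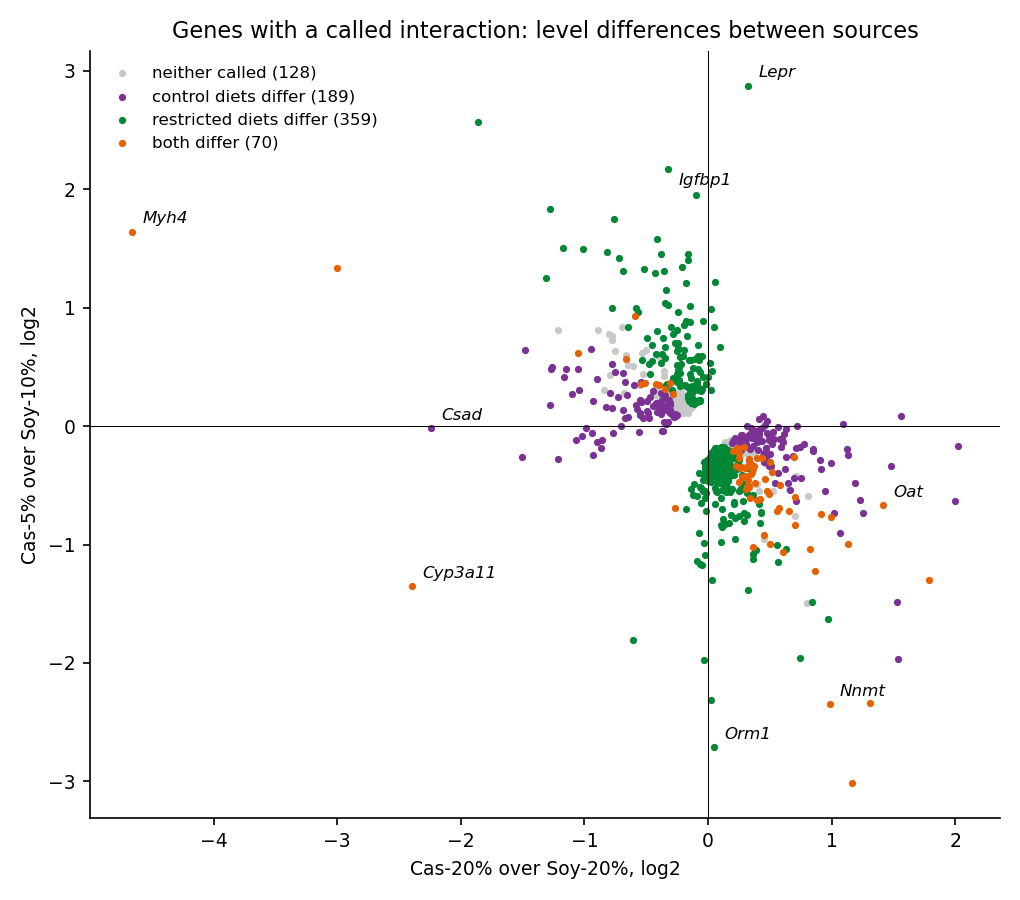
Log2 difference of Cas-5% from Soy-10% livers against that of Cas-20% from Soy-20% livers for the 746 genes with a called interaction, coloured by which of these level differences was called. Csad lies at the left with no restricted difference, Lepr and Igfbp1 lie at the top and Orm1 at the bottom near a control difference of 0, and Cyp3a11 is lower under casein on both axes.

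The genes that responded to both sources included known markers of amino acid shortage. Asns, asparagine synthetase (chromosome 6, 7675169 to 7693254 on GRCm38), ran at 7.75 to 46.6 (median 19.2) normalized counts in Cas-20%, 247 to 351 (median 295) in Cas-5%, 15.1 to 29.6 (median 21.9) in Soy-20% and 91.0 to 209 (median 155) in Soy-10% livers. Each restricted group lay above its control with no overlap. It rose by 3.76 ± 0.25 log2 units under casein and by 2.79 ± 0.26 under soy restriction (adjusted p = 1.19e-11 and 3.57e-07), and the interaction of 0.96, with a 95% interval of 0.17 to 1.76, was not called (adjusted p = 0.149). Fgf21, the hepatic hormone that raises energy expenditure in protein restriction (chromosome 7, 45613886 to 45615490), ran at 16.02 to 61.7 (median 21.4) normalized counts in Cas-20%, 81.0 to 292 (median 162) in Cas-5%, 20.9 to 53.7 (median 43.7) in Soy-20% and 87.2 to 344 (median 144) in Soy-10% livers. Its controls and restricted groups did not overlap within either source, and the Cas-5% and Soy-10% ranges overlapped. Fgf21 rose by 2.55 ± 0.37 under casein and 2.10 ± 0.35 under soy restriction, and its interaction was 0.45 with an interval of -0.62 to 1.52 (adjusted p = 0.697). The interval of Asns lay above 0 before adjustment over all genes and that of Fgf21 included 0, and both reached beyond 1 log2 unit, so equal responses were not shown.

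ATF4 binds with C/EBP partners to an element whose core reads TGATGNAA. Promoters from RefSeq (GRCm38.p6), covering 250 bases before to 50 after each start, were searched on both strands. The core was found in promoters of 12 of 33 matched ATF4 target genes (36.4%), 2 of 15 matched genes raised by both sources without a called interaction, 2 of 9 raised by both unequally, and 11 of 211 raised by casein restriction with no called soy effect, against 271 of 9539 tested genes matched by symbol (2.84%). Matches in 3 genes that rose under both sources, Asns and Fgf21 of the shared class and Slc7a7 with a called interaction, are shown with flanks so that the same core can be seen in genes of both kinds, written along the gene's strand with the core in capitals, where TTNCATCA is the core on the other strand. The windows are chr6:7693214-7693243 (strand -) for Asns, chr7:45615611-45615640 (-) for Fgf21 and chr14:54418067-54418096 (-) for Slc7a7, which holds other matches as well.
Asns: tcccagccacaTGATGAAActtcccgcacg
Fgf21: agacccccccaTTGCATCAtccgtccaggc
Slc7a7: ccgcttgggctTGATGAAAggttcactggg
A match is a description of the letters and not a measured site, and genes without a match include Psat1, Mthfd2 and Phgdh.

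Over the ATF4 target list, 28 of 41 tested members rose and 3 fell under casein restriction, with a median of 0.58, and 6 rose and none fell under soy restriction, with a median of 0.21. The medians over all tested genes were 0.015 and 0.001. The interaction was positive in 12 members and negative in 2, against 2.43% and 3.57% of all genes, and with library totals as scaling in 20 and 1. Under casein restriction 13.4% of all genes rose, and under soy restriction 0.257%. Psat1, the aminotransferase of serine synthesis, ran at 1.93 to 7.01 (median 4.7) normalized counts in Cas-20%, 131 to 172 (median 155) in Cas-5%, 4.02 to 12.6 (median 6.35) in Soy-20% and 26.4 to 93.1 (median 56.5) in Soy-10% livers. Both restricted groups lay above their controls, with rises of 5.02 ± 0.30 and 2.87 ± 0.30, and the interaction was 2.14 ± 0.52 (adjusted p = 0.0119). Mthfd2, a mitochondrial folate dehydrogenase, ran at 19.9 to 34.8 (median 25.8) normalized counts in Cas-20%, 113 to 165 (median 144) in Cas-5%, 16.1 to 40.0 (median 30.7) in Soy-20% and 28.4 to 89.3 (median 64.8) in Soy-10% livers, with effects of 2.41 ± 0.20 under casein and 1.02 ± 0.21 under soy restriction and an interaction of 1.39 ± 0.30 (adjusted p = 0.00424), and its soy groups overlapped. Aldh1l2, a mitochondrial folate enzyme, was low in all diets but Cas-5%, at 21.1 to 53.4 (median 32.0) against 5.21 to 15.2 (median 9.69) in Soy-10% livers, and its soy effect of 1.20 ± 0.40 was not called.

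Phgdh, the first enzyme of serine synthesis, had no read in any of the 6 Cas-20% livers and 16.7 to 62.1 (median 39.4) normalized counts in Cas-5%, which is at least 74.4-fold higher against a floor of 3 reads over the Cas-20% group. Soy-20% livers held 0 to 1.09 (median 0) and Soy-10% livers 0 to 6.46 (median 2.88). Its interaction was not called (adjusted p = 0.156), although the Cas-5% livers lay above the Soy-10% livers without overlap (difference 3.57 ± 0.41, adjusted p = 8.55e-06). With controls at or near 0 the fitted values depend on the prior count. The transporters of cationic amino acids Slc7a1 and Slc7a7 had positive interactions. Slc7a1 ran at 11.01 to 13.9 (median 12.4) normalized counts in Cas-20%, 32.6 to 65.9 (median 47.2) in Cas-5%, 10.4 to 19.1 (median 12.9) in Soy-20% and 12.3 to 24.2 (median 18.2) in Soy-10% livers, and its interaction was 1.56 ± 0.30 (adjusted p = 0.00197). Slc7a7 ran at 14.4 to 34.0 (median 24.2) normalized counts in Cas-20%, 92.2 to 114 (median 102) in Cas-5%, 21.1 to 41.8 (median 33.5) in Soy-20% and 50.0 to 65.5 (median 59.6) in Soy-10% livers, rose under both sources without overlap, and had an interaction of 1.21 ± 0.22 (adjusted p = 8.84e-04). Both soy groups of Slc7a1 overlapped, whereas those of Slc7a7 did not. Pcp4l1 had effects of 3.47 ± 0.23 under casein and 1.71 ± 0.21 under soy restriction and an interaction of 1.75 ± 0.32 (adjusted p = 0.0012).

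**Figure D3:**
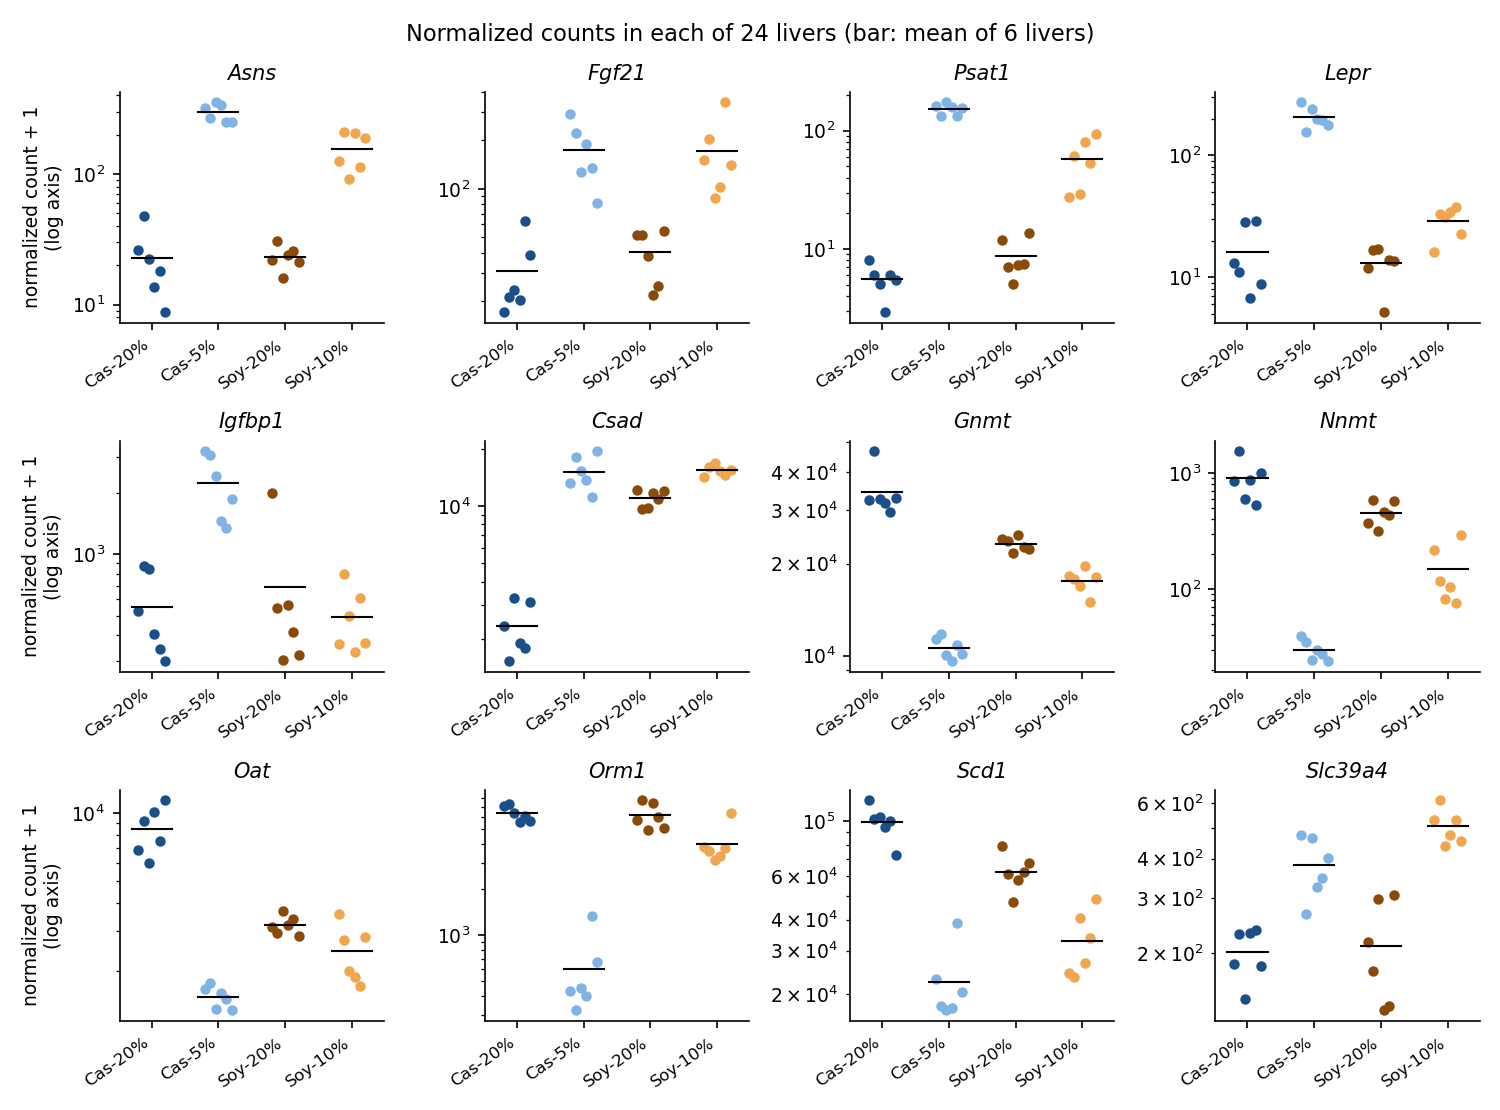
Normalized counts plus 1 on a log axis for 12 genes, with a point for each of 24 livers and a bar at the mean of each diet. Asns, Fgf21 and Slc39a4 are higher in both restricted diets than in their controls, Lepr and Igfbp1 are highest in Cas-5%, and Csad is low in Cas-20% alone.

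Other shared genes covered several functions. Slc39a4, a zinc importer, ran at 142 to 236 (median 206) normalized counts in Cas-20%, 266 to 476 (median 373) in Cas-5%, 131 to 305 (median 195) in Soy-20% and 437 to 612 (median 502) in Soy-10% livers. It rose by 0.93 ± 0.18 under casein and 1.27 ± 0.18 under soy restriction without overlap, and the interaction of -0.34 was not called (adjusted p = 0.493). Usp18, an interferon-induced protease of ISG15 conjugates, rose by 0.56 ± 0.16 and 0.83 ± 0.16, and its casein groups overlapped. Derl3, of endoplasmic reticulum-associated degradation, rose by 2.13 ± 0.32 and 1.66 ± 0.33, and ran at 6.03 to 14.2 (median 7.45) in Soy-20% and 13.3 to 38.8 (median 34.7) in Soy-10% livers. Chdh, choline dehydrogenase, rose by 0.28 ± 0.06 and 0.24 ± 0.06, with an interaction interval of -0.12 to 0.20. Among the shared falls, H2-Q1, a class I antigen presentation gene whose reads may be split with near-identical H2-Q genes, ran at 154 to 250.2 (median 197) normalized counts in Cas-20%, 25.2 to 41.4 (median 32.1) in Cas-5%, 50.4 to 149.5 (median 90.9) in Soy-20% and 13.6 to 36.1 (median 24.6) in Soy-10% livers. Its log2 change was -2.60 under casein and -1.96 under soy restriction, with no overlap in either. Slc10a2, the sodium-dependent bile acid transporter, fell by 1.59 and 1.04 log2 units. Ntrk2, a neurotrophin receptor, fell under both sources, at 24.5 to 55.7 (median 43.4) normalized counts in Cas-20%, 0.97 to 14.1 (median 4.38) in Cas-5%, 10.4 to 105 (median 17.4) in Soy-20% and 0 to 6.09 (median 2.87) in Soy-10% livers. Soy-20% liver 6, at 105, lay far above the others of its diet.

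Genes of the methionine cycle and transsulfuration fell mainly with casein. Of 31 tested members, 19 fell and 5 rose under casein restriction (median -0.45), 5 fell and 1 rose under soy restriction (median -0.10), and the interaction was negative in 15 and positive in 1, Csad. Over all genes 14.8% fell and 13.4% rose under casein, 0.466% fell and 0.257% rose under soy restriction, and 3.57% had a negative and 2.43% a positive interaction. With library totals as scaling the list had 9 negative and 3 positive interactions. Gnmt, the glycine methyltransferase that consumes S-adenosylmethionine, ran at 29563 to 46658 (median 32413) normalized counts in Cas-20%, 9587 to 11755 (median 10477) in Cas-5%, 21615 to 24853 (median 23235) in Soy-20% and 14940.3 to 19642 (median 17934) in Soy-10% livers. The 4 diets did not overlap, and Soy-20% livers lay below Cas-20% livers. Gnmt fell under both sources, with log2 effects of -1.68 ± 0.09 and -0.40 ± 0.09 and an interaction of -1.28 ± 0.13 (adjusted p = 4.08e-07). Nnmt, which methylates nicotinamide, ran at 529 to 1534 (median 861) normalized counts in Cas-20%, 22.9 to 38.6 (median 27.6) in Cas-5%, 315 to 584 (median 444) in Soy-20% and 74.1 to 291 (median 110.2) in Soy-10% livers. Its Cas-5% livers were below every liver of the other diets, its soy groups did not overlap, and its interaction was -3.33 ± 0.43 (adjusted p = 2.00e-05). Fitted on the 12 livers of each source, the effects of Nnmt were -4.95 under casein and -1.62 under soy restriction. Cth, the cystathionine lyase of transsulfuration, fell under casein restriction by 1.04 log2 units with a soy effect of -0.10 ± 0.13, and its interaction was -0.94 ± 0.18 (adjusted p = 0.00189). A pair of enzymes of folate metabolism had negative interactions as well. Aldh1l1, the cytosolic formyltetrahydrofolate dehydrogenase, had effects of -1.53 ± 0.09 under casein and -0.45 ± 0.09 under soy restriction, and Ftcd, of histidine and folate metabolism, had effects of -1.13 ± 0.09 under casein and -0.34 ± 0.09 under soy restriction, with interactions of -1.08 ± 0.12 (adjusted p = 4.10e-06) and -0.79 ± 0.13 (adjusted p = 2.78e-04). Across the serine and folate one-carbon list the interaction was positive in 4 and negative in 3 of 25 members.

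**Figure D4:**
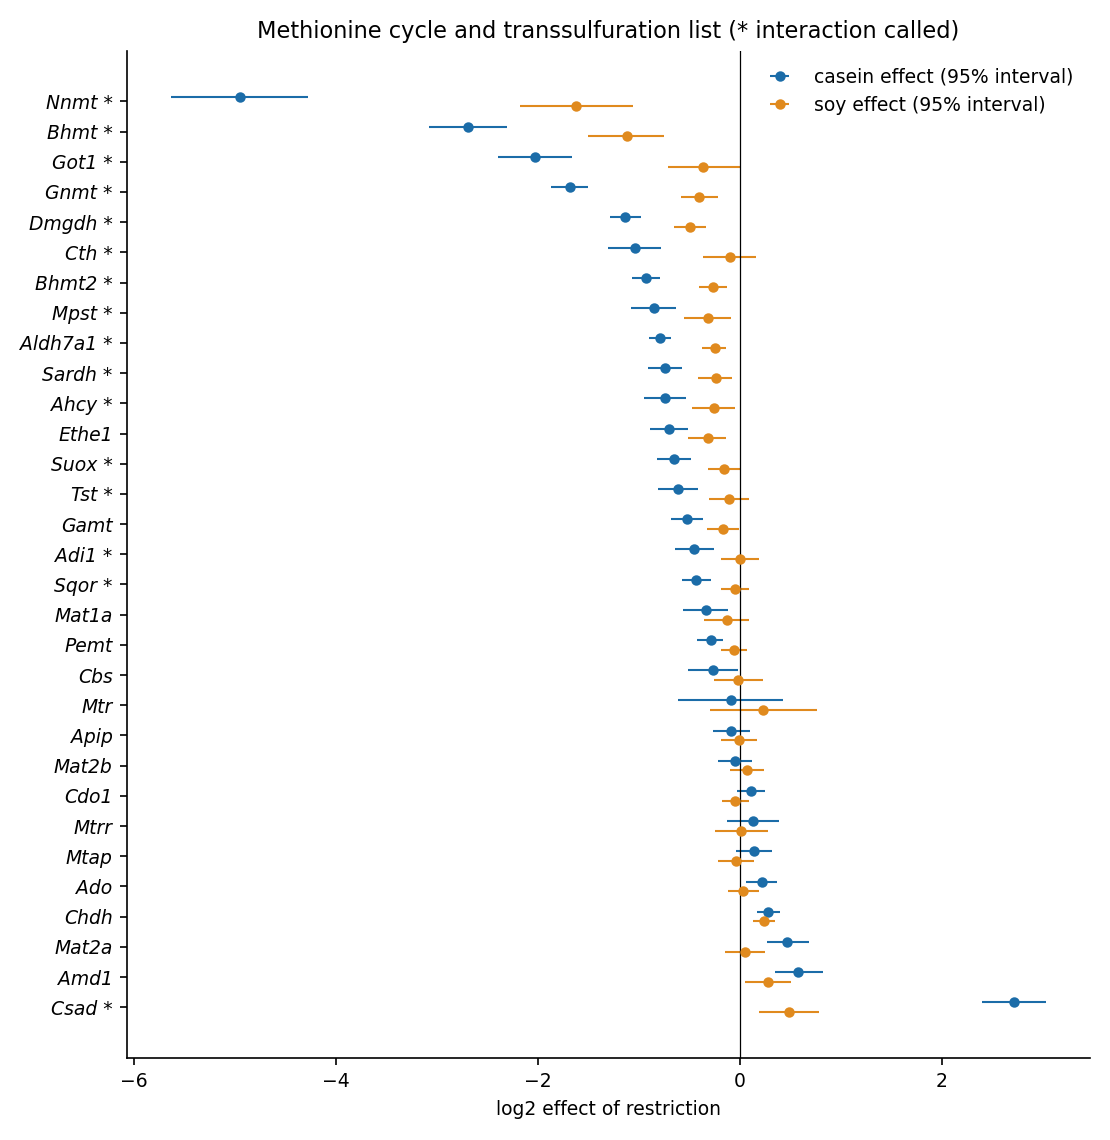
Casein and soy effects on the log2 scale with 95% intervals for 31 tested members of the methionine cycle and transsulfuration list, with 6 livers per diet. Most casein effects lie left of 0 and further from it than the soy effects of the same gene, and Csad has a positive interaction.

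Genes of amino acid breakdown and nitrogen disposal had interactions of one sign. In the urea cycle and ammonia list 17 of 20 members fell and 1 rose under casein restriction (median -0.89), 3 fell under soy restriction (median -0.20), and 12 had a negative interaction. In the amino acid breakdown list 36 of 43 fell under casein, 2 under soy, and 26 had a negative interaction. In branched-chain amino acid oxidation these numbers were 19, 1 and 12 of 25. The 22 periportal hepatocyte genes, which overlap with the urea list, had 16 falls under casein, 6 under soy and 13 negative interactions. No member of these 4 lists had a positive interaction. Over all genes 14.8% fell under casein, 0.466% fell under soy restriction and 3.57% had a negative interaction, and with library totals as scaling they numbered 12, 22, 9 and 11, with 2 positive ones in the breakdown list. In Cas-20% against Soy-20% livers 10 urea, 16 breakdown, 2 branched-chain and 11 periportal members were higher and none lower. In Cas-5% against Soy-10% livers 9, 27, 16 and 11 were lower, and 1 urea and 1 periportal member were higher. Over all genes 5.33% differed between the control diets and 9.71% between the restricted diets.

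Ass1, argininosuccinate synthetase, ran at 5837 to 12682 (median 7499) normalized counts in Cas-20%, 1236 to 1802 (median 1623) in Cas-5%, 4110.1 to 6365 (median 5065) in Soy-20% and 2317 to 3407 (median 2756) in Soy-10% livers. Each restricted group lay below its control without overlap, and the interaction was -1.53 ± 0.21 (adjusted p = 3.63e-05), from -2.40 ± 0.15 under casein and -0.86 ± 0.15 under soy restriction. Cps1, which fixes ammonia at the entry of the cycle, ran at 8139 to 13501 (median 10771) in Cas-20% and 3149 to 5683 (median 3948) in Cas-5%, and its soy effect of -0.46 ± 0.14 was not called (adjusted p = 0.138). Gls2, the liver glutaminase, fell by 1.86 under casein and 0.49 log2 units under soy restriction, with an interaction of -1.37 ± 0.16 (adjusted p = 5.23e-06). Slc38a3, a glutamine transporter, ran at 5278 to 6647 (median 5520.4) normalized counts in Cas-20%, 2306 to 2729 (median 2574) in Cas-5%, 3129 to 3908 (median 3556) in Soy-20% and 2758 to 3654 (median 2931) in Soy-10% livers. The soy groups overlapped, both lay below Cas-20%, and the interaction was -0.96 ± 0.11 (adjusted p = 2.06e-06). Slc38a4 and Slc7a2, which carry neutral and cationic amino acids, had interactions of -0.91 ± 0.11 (adjusted p = 5.61e-06) and -1.19 ± 0.19 (adjusted p = 2.10e-04), and the soy effect of Slc7a2 was 0.02 ± 0.13. Over 29 tested amino acid transporters the interaction was positive in 6 and negative in 4, so the list did not move one way. Over all genes these shares were 2.43% and 3.57%.

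Among the breakdown enzymes, Agxt, which transaminates glyoxylate with alanine or serine, ran at 1018 to 1504 (median 1286) normalized counts in Cas-20%, 293 to 339.8 (median 313) in Cas-5%, 655 to 903 (median 886) in Soy-20% and 497 to 1043 (median 626) in Soy-10% livers and had an interaction of -1.68 ± 0.18 (adjusted p = 1.39e-06). Aass, of lysine breakdown, had effects of -1.24 ± 0.08 under casein and -0.17 ± 0.08 under soy restriction. Uroc1, of histidine breakdown, fell under both sources, by 1.18 and 0.33 log2 units. In Aass the soy groups overlapped, and in Uroc1 they did not. Abat, the aminotransferase of GABA and valine-derived intermediates, ran at 1489 to 2159 (median 1656) normalized counts in Cas-20%, 404 to 595 (median 529.9) in Cas-5%, 1187 to 1553 (median 1287) in Soy-20% and 984 to 1156 (median 1064) in Soy-10% livers, with an interaction of -1.39 ± 0.13 (adjusted p = 1.92e-07). Hibadh and Ivd, which act on valine and leucine products, fell under casein restriction by 0.67 and 1.02, and had soy effects of -0.06 ± 0.07 and -0.22 ± 0.09 that were not called.

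Lipogenic genes fell with casein restriction, and few of their interactions were called. Of 41 members 24 fell under casein restriction (median -0.67) and 3 under soy restriction (median -0.26), where the soy estimate was below 0 in 37 of 41, and 5 had a negative interaction. Over all genes 14.8% fell under casein and 0.466% under soy restriction, and 3.57% had a negative interaction. Scd1, the stearoyl-CoA desaturase, ran at 72878 to 121121 (median 101247) normalized counts in Cas-20%, 17251 to 38820.3 (median 19176) in Cas-5%, 46954 to 79433 (median 61635) in Soy-20% and 23558 to 48668 (median 30233) in Soy-10% livers. It fell under both sources, with log2 effects of -2.13 ± 0.20 and -0.92 ± 0.19 and an interaction of -1.20 ± 0.27 (adjusted p = 0.00573). Fasn, fatty acid synthase, ran at 2056 to 9594 (median 4387) normalized counts in Cas-20%, 1022 to 1801 (median 1522) in Cas-5%, 1095 to 8006 (median 2382) in Soy-20% and 711 to 2012 (median 1195) in Soy-10% livers. Both control groups spread widely, the soy effect of -1.44 ± 0.41 was not called (adjusted p = 0.105), and the interaction was -0.41 with an interval of -1.57 to 0.74. Srebf1, the transcription factor of lipogenesis, had an interaction of -1.32 ± 0.26 (adjusted p = 0.00225). Fads1 and Fads2, the desaturases of polyunsaturated fatty acids, had effects of -0.93 and -1.57 under casein and -0.25 and -0.29 under soy restriction, and interactions of -0.68 ± 0.13 (adjusted p = 0.00121) and -1.28 ± 0.19 (adjusted p = 7.38e-05). In Fads1 the Soy-20% livers, at 3043 to 5057 (median 3504), lay below the Cas-20% livers, at 5109 to 6058 (median 5667). In the cholesterol synthesis and uptake list 10 of 25 fell under casein and none under soy, although the soy estimate was below 0 in all 25, and 2 had a negative interaction, among them Tm7sf2, a sterol reductase, at -0.73 ± 0.20 (adjusted p = 0.0304). With library totals none of the 25 had a called interaction.

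Of 48 fatty acid oxidation and PPARA target genes, 18 rose and 3 fell under casein restriction, 1 rose under soy restriction, and 1 had a called, positive interaction, close to the share of 2.43% over all genes. Under casein restriction 13.4% of all genes rose and 14.8% fell. With library totals as scaling 32 of the list rose and none fell under casein restriction and 4 had a positive interaction. The gene called was Cyp4a31, a fatty acid hydroxylase, which ran at 11.01 to 91.9 (median 50.2) normalized counts in Cas-20%, 153 to 406 (median 239) in Cas-5%, 31.6 to 98.5 (median 62.2) in Soy-20% and 61.5 to 176 (median 96.6) in Soy-10% livers, with an interaction of 1.72 ± 0.48 (adjusted p = 0.0293).

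**Figure D5:**
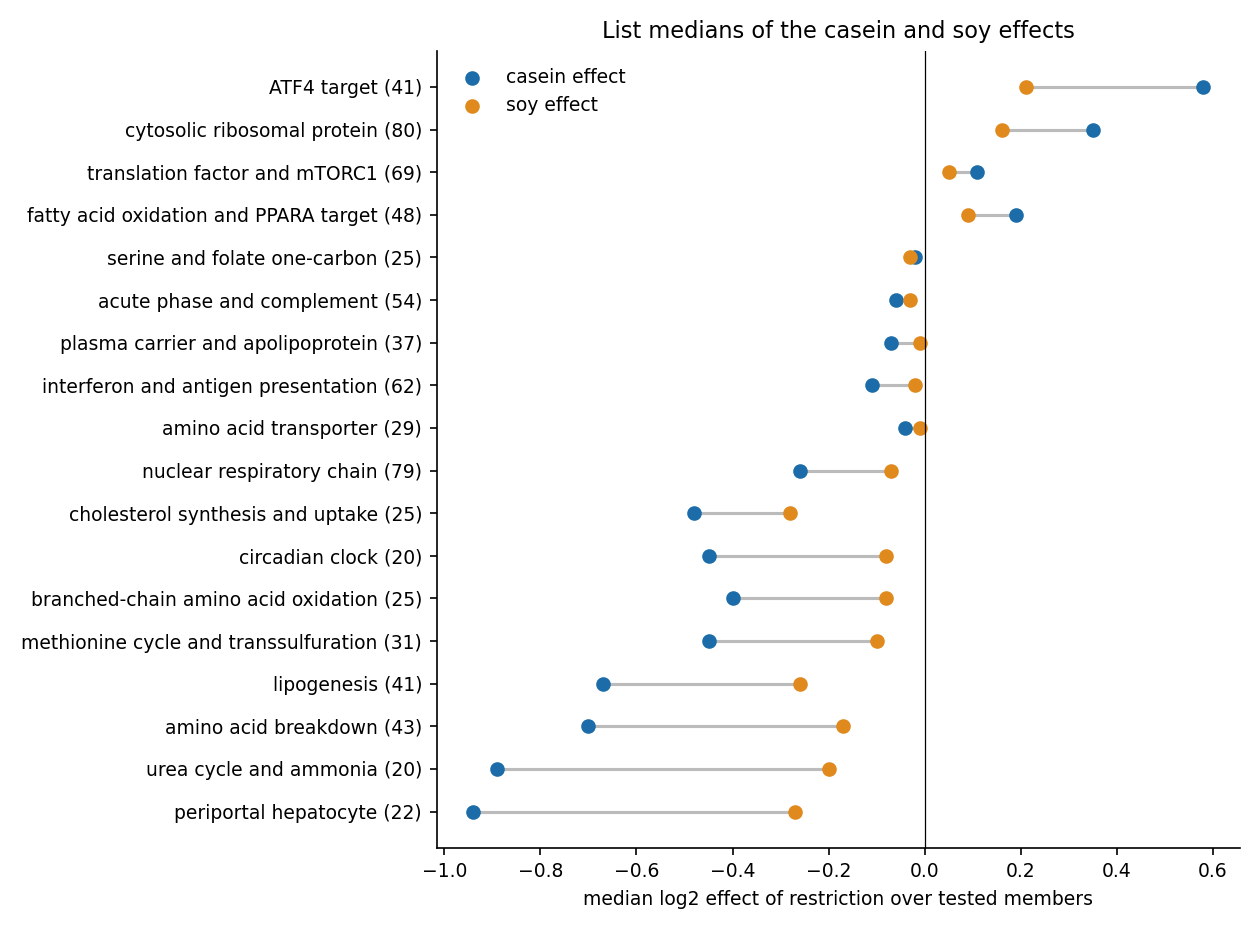
Median log2 effect of casein restriction (blue) and soy restriction (orange) over the tested members of 18 gene lists, with the number of members in parentheses. The soy median lies between the casein median and 0 in every list shown but serine and folate one-carbon, and the periportal and urea cycle lists have the lowest casein medians. Of the lists not shown, some keep this order and others do not. Among the latter are glutathione and NRF2 targets (-0.05 for casein, 0.08 for soy) and phase II enzymes (-0.12 and 0.04). With library totals as scaling the casein medians of the serine and folate, acute phase, plasma carrier, interferon and transporter lists lie above 0.

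Genes for the respiratory chain and the ribosome moved in opposite directions under casein restriction and hardly passed the test under soy restriction. Of 79 nuclear genes of the respiratory chain 57 fell under casein (median -0.26), none was called under soy (median -0.07), and 23 had a negative interaction. Over all genes 14.8% fell under casein, 0.723% were called under soy restriction and 3.57% had a negative interaction. Of these 79 genes 55 were lower in Cas-5% than in Soy-10% livers, and 1 differed between the controls. With library totals as scaling 26 fell and 3 rose under casein and 6 had a negative interaction. Atp5g3, a subunit of ATP synthase, ran at 19661 to 24077 (median 21484) normalized counts in Cas-20%, 12253 to 15139 (median 14344) in Cas-5%, 18083 to 21291 (median 20171) in Soy-20% and 18345 to 20499 (median 19105) in Soy-10% livers, with an interaction of -0.56 ± 0.09 (adjusted p = 1.55e-04). Cox6b1 and Sdhb, of complexes IV and II, had interactions of -0.38 ± 0.06 (adjusted p = 6.02e-04) and -0.50 ± 0.10 (adjusted p = 0.00161). Of 80 cytosolic ribosomal protein genes 68 rose under casein (median 0.35) and 2 under soy, where 77 of the 80 estimates lay above 0 (median 0.16), and 9 had a positive interaction, where 13.4% of all genes rose under casein, 0.257% rose under soy restriction and 2.43% had a positive interaction. With library totals 76 rose under casein and 44 had a positive interaction. Rpl13a ran at 2324 to 3409 (median 2813) normalized counts in Cas-20%, 4405 to 5885 (median 4699) in Cas-5%, 3179.8 to 4359 (median 3596) in Soy-20% and 3573 to 4860.4 (median 4426) in Soy-10% livers, with an interaction of 0.52 ± 0.13 (adjusted p = 0.0183). Rpsa and Rplp0 were shared, with rises of 0.37 and 0.46 under casein and 0.29 and 0.24 under soy restriction.

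Hormone-related and secreted protein genes had interactions of both signs. Igfbp1, which binds IGF1 and is induced in fasting, ran at 298 to 877 (median 464) normalized counts in Cas-20%, 1346 to 3178 (median 2140.3) in Cas-5%, 302 to 1984 (median 478) in Soy-20% and 329.6 to 796 (median 431) in Soy-10% livers. The Cas-5% livers lay above the Cas-20% livers, and Soy-20% liver 1, at 1984, was the one soy liver in their range. Its interaction was 2.50 ± 0.53 (adjusted p = 0.00415), and the soy effect of -0.48 ± 0.38 became 0.21 without Soy-20% liver 1, where the interaction was 1.82 (adjusted p = 0.00508). Ghr, the growth hormone receptor, had effects of -0.49 ± 0.07 under casein and -0.16 ± 0.07 under soy restriction and an interaction of -0.33 ± 0.09 (adjusted p = 0.0314). Igf1 fell under casein restriction by 0.35 log2 units, had a soy effect of -0.15 ± 0.08, and its interaction of -0.20 was not called (adjusted p = 0.339). Hamp2, a hepcidin gene, ran at 967 to 3130.3 (median 1404) normalized counts in Cas-20%, 31.7 to 222 (median 101) in Cas-5%, 231 to 718 (median 497) in Soy-20% and 186 to 354 (median 282) in Soy-10% livers, and its interaction was -3.08 ± 0.45 (adjusted p = 8.79e-05). Serpina1d, an alpha-1 antitrypsin gene with near-identical copies, had effects of -0.91 ± 0.07 under casein and -0.16 ± 0.07 under soy restriction. Cp, ceruloplasmin, had the opposite sign, with an interaction of 0.47 ± 0.10 (adjusted p = 0.00317). Over all genes the interaction was positive in 2.43% and negative in 3.57%. Of 54 acute phase and complement genes 5 had a positive and 6 a negative interaction. Of 37 plasma carrier and apolipoprotein genes 7 had a negative one. With library totals these splits were 12 and 3, and 4 positive and 3 negative, so neither list had a direction that held under each scaling.

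Among 20 clock genes 11 fell and 2 rose under casein restriction, none was called under soy restriction and 4 had a negative interaction, while with library totals 3 were negative and 2 positive. Per2 ran at 87.1 to 155 (median 128) normalized counts in Cas-20%, 34.6 to 67.4 (median 36.5) in Cas-5%, 17.8 to 93.7 (median 51.0) in Soy-20% and 35.5 to 75.5 (median 49.8) in Soy-10% livers, with a Cas-20% to Soy-20% difference of 1.13 ± 0.23 and an interaction of -1.38 ± 0.35 (adjusted p = 0.017). Bhlhe41, a clock repressor, had an interaction of -2.60 ± 0.63 (adjusted p = 0.012). Of 40 Cyp1, Cyp2 and Cyp3 genes 13 rose and 13 fell under casein restriction, 1 rose under soy restriction, and 2 had a positive and 5 a negative interaction. With library totals this split turned to 8 positive and 2 negative, with 17 rises and 11 falls under casein. Over all genes 13.4% rose and 14.8% fell under casein and 0.723% were called under soy restriction, and the interaction was positive in 2.43% and negative in 3.57%. Cyp2a5 had effects of -0.99 ± 0.19 under casein and 0.34 ± 0.19 under soy restriction, estimates of opposite sign. Cyp4a12a, a male-biased hydroxylase with near-identical copies, had effects of -1.06 ± 0.16 under casein and -0.02 ± 0.15 under soy restriction. Cyp39a1, an oxysterol hydroxylase of bile acid synthesis, rose under both sources without overlap and had an interaction of 1.14 ± 0.27 (adjusted p = 0.00964). Cyp7a1, the rate-limiting enzyme of bile acid synthesis, and Mup20, a major urinary protein, had interactions of 0.36 (interval -0.46 to 1.18) and 0.09 (interval -0.45 to 0.62) that were not called.

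The remaining lists are given by their counts of positive and negative interactions, against 2.43% and 3.57% of all genes. These were 6 and 0 of 69 translation factor and mTORC1 genes, 0 and 3 of 62 interferon and antigen presentation genes, among them Oasl1 at -1.26, 1 and 4 of 32 glutathione and NRF2 targets, 2 and 4 of 42 phase II enzymes, 3 and 3 of 37 genes of gluconeogenesis and glycolysis, 2 and 3 of 29 genes of bile acid synthesis and transport, 0 and 3 of 37 male-biased and 0 and 1 of 18 female-biased genes. They were 2 and 1 of 26 genes of the growth hormone axis, 1 and 1 of 49 genes of the unfolded protein response, 1 and 2 of 33 growth arrest genes, 1 and 1 of 29 metal handling genes, 1 and 7 of 27 pericentral genes, 0 and 1 of 77 mitochondrial ribosomal proteins and 0 and 2 of 42 proteasome subunits. Many of these splits moved with the scaling. With library totals they were 13 and 0 for translation factors, 4 and 3 for glutathione and NRF2 targets, 5 and 4 for phase II enzymes, 4 and 0 for gluconeogenesis and glycolysis, 2 and 0 for bile acid genes, 5 and 0 for the growth hormone axis, 4 and 0 for the unfolded protein response, 4 and 2 for growth arrest, 3 and 4 for pericentral genes, 3 and 0 for mitochondrial ribosomal proteins and 1 and 0 for proteasome subunits.

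Response to soy restriction alone was nearly absent from the calls. Mllt3, a chromatin reader of the super elongation complex, ran at 41.8 to 63.4 (median 47.3) normalized counts in Cas-20%, 43.2 to 59.3 (median 54.9) in Cas-5%, 39.7 to 66.6 (median 54.2) in Soy-20% and 31.9 to 39.9 (median 37.4) in Soy-10% livers. The soy groups overlapped, the soy effect of -0.54 ± 0.13 had an adjusted p of 0.0499, the casein effect was 0.14 ± 0.13, and its place in this class was lost when any of 17 single livers was left out. Another 15 genes had a called interaction with neither effect called, and in all 15 the casein and soy estimates had opposite signs with the soy effect at an unadjusted p under 0.05. This nearly follows from how the class is defined, because uncalled effects of the same sign would seldom differ enough to be called. Against the supplemented soy control in place of Soy-20%, the soy effect was called for 2863 genes, 395 of them with a called interaction and no called casein effect, in libraries of which several carry the GC slope given above. Of the 746 genes, 728 kept the sign of their interaction in that comparison and 356 were also called with that sign. That comparison reused the Cas-20%, Cas-5% and Soy-10% livers. In 731 of the 746 genes the casein effect was the larger, so the sign was likely to be kept.

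Several genes of low level had large interactions. Acpp, prostatic acid phosphatase, ran at 39.5 to 164 (median 43.8) normalized counts in Cas-20%, 0 to 4.4 (median 0.96) in Cas-5%, 20.9 to 51.3 (median 33.1) in Soy-20% and 9.11 to 18.1 (median 13.7) in Soy-10% livers, with an interaction of -4.18 ± 0.75 (adjusted p = 0.001). Dct, dopachrome tautomerase, ran at 91.9 to 157 (median 124) normalized counts in Cas-20%, 0 to 5.76 (median 1.76) in Cas-5%, 22.5 to 67.4 (median 53.7) in Soy-20% and 6.46 to 26.6 (median 12.5) in Soy-10% livers and fell under both sources, with an interaction of -3.65 ± 0.57 (adjusted p = 2.14e-04). Lrtm1 fell from 157 to 498 (median 262) to 2.91 to 18.5 (median 4.86) under casein, and its interaction was -3.51 ± 0.73 (adjusted p = 0.00317). Slc34a2, a phosphate transporter, ran at 14.4 to 43.5 (median 17.1) in Cas-5% livers and between 0 and 6.65 in the other diets, with an interaction of 4.42 ± 0.82 (adjusted p = 0.00121). Lum, a proteoglycan of fibroblasts and stellate cells, ran at 37.8 to 56.1 (median 43.5) normalized counts in Cas-20%, 56.9 to 121 (median 92.3) in Cas-5%, 38.2 to 58.3 (median 50.8) in Soy-20% and 42.6 to 61.4 (median 48.1) in Soy-10% livers, with an interaction of 1.07 ± 0.22 (adjusted p = 0.00317). The part of the higher stellate and fibroblast marker sums of the Cas-5% livers in this value was not tested.

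Some genes of skeletal muscle fibres, a list added after their values were seen, also had positive interactions, with low values in the Cas-20% livers. Myh4, a fast myosin heavy chain, ran at 0 to 1.02 (median 0) normalized counts in Cas-20%, 5.82 to 21.1 (median 14.58) in Cas-5%, 7.03 to 19.1 (median 11.2) in Soy-20% and 0 to 7.75 (median 4.25) in Soy-10% livers, and Ttn, titin, ran at 1 to 4.09 (median 2.01) normalized counts in Cas-20%, 14.5 to 35.5 (median 19.9) in Cas-5%, 12.9 to 27.4 (median 18.6) in Soy-20% and 4.56 to 14.60 (median 8.07) in Soy-10% livers. Their interactions were 6.31 ± 0.81 (adjusted p = 1.58e-05) and 4.34 ± 0.48 (adjusted p = 2.40e-06). In the 6 Cas-20% libraries Ckm, Tnnt3, Acta1 and Myh4 had 0 to 2 reads each, against medians of 6 to 14 reads in Cas-5%, 5 to 10 in Soy-20% and 2 to 5 in Soy-10% libraries. Of the 18 list members 9 were in the table, 5 were tested and 4 had a positive interaction. Their summed level was 230.0 to 351 normalized counts in Cas-20%, 203 to 329.5 in Cas-5%, 209.5 to 337 in Soy-20% and 159.6 to 243 in Soy-10% livers, most of it from Neb. Neb went the other way and was highest in Cas-20%, with a median of 257 reads against 124 in Cas-5%, 169 in Soy-20% and 128 in Soy-10% libraries, and its interaction was not called. Over all genes 2.43% had a positive interaction. The part of other tissue in these values was not tested.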

How the data were processed

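Liver RNA of 30 mice was sequenced by the study with Lexogen QuantSeq 3′ libraries, 1 per liver, and 24 libraries were used here. The authors deposited raw counts per gene, made with a commercial QuantSeq pipeline on GRCm38 (mm10), and a table of normalized counts, a signal in which the authors divided the counts by DESeq2 size factors. The processing notes of the submitters name R 4.0.3 and DESeq2 1.30. The aligner, the counter and the annotation are not given in the sources used here. Reads were counted at 3′ ends, so levels are not per length.

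Raw counts of the 24 livers were fitted with edgeR 4.0.16 in R 4.3.3, with 1 term per diet, TMM factors and filterByExpr, which left 12450 of 14173 genes. Interaction, casein and soy effects came from contrasts in this fit by quasi-likelihood F tests, with p adjusted over all genes tested by Benjamini and Hochberg's method and a threshold of 0.05. Values after ± are standard errors worked out from each log2 effect and its F statistic, and the 95% intervals were built from them. The standard errors of the casein and soy effects therefore need not combine exactly to that of the interaction. The casein and soy effects share no liver, whereas the interaction shares livers with both. DESeq2 1.42.0, limma 3.58.1, other scalings, filters, samples and the supplemented control were tried as alternatives. The fits were also run on simulated counts in which some genes of higher count were changed in the Cas-5% group alone. Changes under soy restriction and changes in genes of low count were not covered by it. Normalized counts are given as deposited, scaled by the authors over all 30 livers. Gene symbols came from the count table for 12455 genes and from reference names for another 1684. The 24 libraries held 7694015 to 13050108 reads, and counts near 0 limit precision.

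Named genes were the 10 largest positive and negative interactions with a mean of at least 10 counts in a diet, up to 3 members per list by interaction p, the first 6 shared rises and falls and up to 2 shared members per list, up to 5 genes per class with both effects or soy only, and a fixed set (Fgf21, Asns, Psat1, Phgdh, Fasn, Scd1, Lepr, Igf1, Cyp7a1 and Mup20). Some genes that meet this rule are not reported here. Members of this rule, lists and tests were chosen with earlier results of these data known.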

Additional observations from a re-analysis of the deposited data

Results flagged for a closer look

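The casein and soy effects differed by the interaction test in 57 of the genes named above, and each value below is the interaction on the log2 scale. It was positive for Myh4 (6.31), Slc34a2 (4.42), Ttn (4.34), Lepr (2.55), Aldh1l2 (2.51) and Igfbp1 (2.50). Smaller positive values were those of Csad (2.23), Psat1 (2.14), Pcp4l1 (1.75), Cyp4a31 (1.72), Slc7a1 (1.56) and Mthfd2 (1.39). Positive values also belonged to Slc7a7 (1.21), Cyp39a1 (1.14), Lum (1.07), Cyp3a11 (1.04), Mllt3 (0.68) and Rpl13a (0.52). Further positive values were found for Cp (0.47). It was negative for Acpp (-4.18), Dct (-3.65), Lrtm1 (-3.51), Nnmt (-3.33), Hamp2 (-3.08), Orm1 (-2.76) and Bhlhe41 (-2.60). Next came Oat (-2.08), Agxt (-1.68), Ass1 (-1.53), Abat (-1.39), Per2 (-1.38), Gls2 (-1.37) and Cyp2a5 (-1.33). Negative values also belonged to Srebf1 (-1.32), Fads2 (-1.28), Gnmt (-1.28), Oasl1 (-1.26), Scd1 (-1.20), Slc7a2 (-1.19) and Aldh1l1 (-1.08). Further negative values were found for Aass (-1.07), Cyp4a12a (-1.05), Slc38a3 (-0.96), Cth (-0.94), Cps1 (-0.94), Slc38a4 (-0.91) and Uroc1 (-0.85). The same sign was found for Ivd (-0.80), Ftcd (-0.79), Serpina1d (-0.74), Tm7sf2 (-0.73), Fads1 (-0.68), Hibadh (-0.61) and Atp5g3 (-0.56). The list continued with Sdhb (-0.50), Cox6b1 (-0.38) and Ghr (-0.33). These genes were chosen partly by their interaction, so the values are a description. No explanation was tested.

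A liver stood apart from the other 5 of its diet by Dixon's criterion in 27 of 332 groups of values, where chance gives about 5% of groups. In Cas-20% liver 2 the normalized counts apart were 5365 for Aldh1l1, 46658 for Gnmt, 3721 for Uroc1 and 2159 for Abat. In Cas-5% liver 1 the normalized counts apart were 5683 for Cps1 and 1194 for Aass. In Soy-10% liver 1 the normalized counts apart were 1043 for Agxt and 12764 for Igf1. In Cas-5% liver 3 the normalized counts apart were 5791 for Slc38a4. In Soy-20% liver 1 the normalized counts apart were 5057 for Fads1 and 1984 for Igfbp1. In Cas-5% liver 5 the normalized counts apart were 38820.3 for Scd1, 1337 for Orm1 and 67.4 for Per2. In Soy-10% liver 6 the normalized counts apart were 6379 for Orm1 and 76.0 for Lrtm1. In Soy-20% liver 3 the normalized counts apart were 11889 for Cp. In Soy-10% liver 4 the normalized counts apart were 60.5 for Bhlhe41. In Soy-20% liver 5 the normalized counts apart were 90.1 for Cyp39a1. In Cas-5% liver 6 the normalized counts apart were 14.1 for Ntrk2. In Soy-20% liver 6 the normalized counts apart were 105 for Ntrk2. In Cas-5% liver 2 the normalized counts apart were 43.5 for Slc34a2. In Soy-10% liver 2 the normalized counts apart were 61.4 for Lum. The summed Kupffer cell markers stood at 8798 normalized counts in Soy-10% liver 6. The summed red blood cell markers stood at 36678 normalized counts in Soy-10% liver 2. The summed pancreatic acinar markers stood at 12244 normalized counts in Soy-10% liver 4. The summed adipocyte markers stood at 939 normalized counts in Soy-10% liver 6.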

How the results depend on the processing

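The directions of the named genes held under most alternatives. Below, casein only and soy only mean a called effect and a called interaction where the effect of the other source was not called. With DESeq2 the soy effect was called for 162 genes (58 higher, 104 lower), 77 had both effects with an interaction and 71 were shared. With library totals only, 1248 interactions were called (1028 positive, 220 negative), 4306 casein effects were higher and 889 lower, 49 soy effects were higher, and 1181 genes changed with casein only. With all 30 livers sharing the spread, 493 interactions were called (289 negative), 455 genes changed with casein only, 27 were shared, 19 soy effects were higher and 428 genes differed between Cas-20% and Soy-20%. With the supplemented soy control in place of Soy-20%, 688 interactions were negative, 144 genes had both effects with an interaction, 931 were shared, 395 changed with soy only, the soy effect was called for 2863 genes (1587 higher, 1276 lower), 2067 genes differed between the controls and 766 between the restricted diets. At an adjusted p of 0.1, 1227 interactions were called and 73 genes were shared. The class with a soy effect only held 0 genes with DESeq2 size factors, library totals, no filter on low counts or the replicate block. The cause of these changes was not tested. Leaving out each liver in turn gave 601 to 764 interactions (236 to 310 positive, 364 to 457 negative), 554 to 709 genes with casein only, 0 to 1 with soy only, 23 to 51 with both effects and an interaction, 14 to 69 shared, 3086 to 3552 casein effects (1427 to 1693 higher, 1659 to 1868 lower), 39 to 126 soy effects (17 to 45 higher, 22 to 81 lower), 382 to 781 differences between controls and 906 to 1275 between restricted diets. The control difference was called for 382 genes without Soy-20% liver 4 and for 432 without Cas-20% liver 2, and 23 genes had both effects with an interaction without Soy-20% liver 1, against 24 without Soy-10% liver 2 or 5.

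Signs turned in a few values, most of them near 0. Against the supplemented soy control the turned values were -0.12 for the interaction of Fgf21, 0.34 for the soy effect of Cth, -0.34 for the interaction of Chdh, 0.77 for the soy effect of Hibadh, -0.29 for the soy effect of Slc7a2, 0.30 for the soy effect of Srebf1, 0.23 for the interaction of Fasn, 0.20 for the soy effect of Tm7sf2, 0.03 for the soy effect of Atp5g3, 0.12 for the soy effect of Ghr, -0.04 for the interaction of Mup20 and 0.51 for the interaction of H2-Q1. With limma voom the turned values were 0.13 for the soy effect of Per2, -0.46 for the interaction of Ntrk2 and -0.08 for the soy effect of Slc34a2. With library totals the turned value was 0.02 for the soy effect of Cyp4a12a. With the replicate block the turned values were 0.01 for the soy effect of Cyp4a12a and -0.03 for the soy effect of Slc34a2. With DESeq2 the turned value was -0.01 for the soy effect of Slc34a2. With no filter on low counts the turned value was -0.01 for the soy effect of Slc34a2. Leaving out single livers turned a sign within these ranges, -0.05 to 0.11 for the soy effect of Slc7a2, -0.67 to 0.21 for the soy effect of Igfbp1, -0.03 to 0.04 for the soy effect of Cp, -0.34 to 0.04 for the soy effect of Per2, -0.09 to 0.12 for the soy effect of Cyp3a11, -0.09 to 0.05 for the soy effect of Cyp4a12a, -0.05 to 0.18 for the interaction of Mup20, -0.03 to 0.20 for the soy effect of Mup20, -0.41 to 0.68 for the interaction of Ntrk2, -0.30 to 0.25 for the soy effect of Slc34a2 and -0.13 to 0.01 for the soy effect of Lum. Over the effects of the named genes, counts of genes left aside, 1794 values under the other settings kept direction and call, 38 lost the call, 40 gained it and 20 turned, and for single livers left out these numbers were 5115, 92, 14 and 35.

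Replicate numbers were shared by the diets, but same-numbered livers correlated between -0.15 and 0.16 over 36 pairs, with 3 above 0.1, so the numbers were not taken as pairs. With the replicate block 694 interactions (277 positive, 417 negative), 75 soy effects and 34 shared genes were called. Fitted on its own 12 livers, the casein effect was called for 3008 genes and the soy effect for 103, and the soy effects of Csad (adjusted p = 0.00266), Lepr (0.0431), Ftcd (0.00871), Abat (0.0409) and Acpp (0.018) passed the edgeR threshold, while those of Mthfd2 (0.068), Chdh (0.074), Rpsa and Rplp0 (0.0614 each) and Mllt3 (0.0918) no longer did. Low counts limit what can be seen in genes such as Phgdh and Aldh1l2.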
